A study of Homo sapiens with 12 samples.

Results

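The comparison described here is that of pIND CNOT2 cells with Dox (CNOT2 +Dox) and pIND Luci cells with Dox (Luci +Dox), 2 arrays each, over the genes outside the MHC class II group. Every array gave a value for 20042 genes, of which 20024 lie outside this group (HLA-D symbols and CD74 were left out), and 15017 of them were bright enough to be tested. All cells were HEK-293T cells, a human line of embryonic kidney origin. They held a stably integrated pINDUCER plasmid for a miR30-based shRNA whose expression is induced by doxycycline (Dox). The CNOT2 line carries an shRNA against CNOT2 and the Luci line an shRNA against firefly luciferase, so that both +Dox groups received 1 µg/ml Dox for 4 days and both expressed an shRNA. The lines were stable cell clones. The same lines without Dox (CNOT2 -Dox and Luci -Dox, 2 arrays each) complete the set of 8 arrays. CNOT1 and CNOT3 lines with and without Dox, 1 array each, complete the series of 12.

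CCR4-NOT is a large complex that shortens the poly(A) tails of mRNAs, which is usually the first step of their decay, and it also acts on transcription in the nucleus. CNOT1 is its scaffold, CNOT7, CNOT8, CNOT6 and CNOT6L are its deadenylases, and CNOT2 and CNOT3 form a module at the end of the scaffold that helps to recruit target mRNAs. Steady-state levels as measured here do not separate a change in decay from a change in synthesis.

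All values below are log2 spot intensities after the quantile normalization of the authors, which gave all 12 arrays a median of 3.34. A level close to this median is near the dim end of the array, and no call of detection comes with it. Replicates of a group correlated across genes with r between 0.957 and 0.970. All 8 listed markers of HEK-293T cells passed the filter on dim genes, with mean levels between 5.04 for MYCN and 14.68 for NEFM. The deposited description calls the replicates technical, while the study speaks of a biological and a technical one. As this is not settled, p-values measure only the spread between these arrays, which may be smaller than that between cultures. For replicate 2 of Luci -Dox the title and another label contradict each other on Dox, and it was grouped by its title.

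CNOT2 mRNA was at 8.96 and 8.38 in CNOT2 +Dox cells, against 10.36 and 9.98 in Luci +Dox cells. Both values with the induced shRNA lay below all 6 other values, which ranged between 9.72 and 10.36, a pattern found in 4.73% of all tested genes. The fitted difference was -1.5 ± 0.20 (log2, SE), or 2.83-fold lower, with an adjusted p of 0.029 in limma. A second, dim spot for CNOT2 with a mean level of 2.78 differed by -0.11 and 0.66 in the 2 pairs. The mRNAs of the other 11 subunits were not called. Among them CNOT3 had 10.23 and 10.66 in CNOT2 +Dox cells, against 9.76 and 10.34 in Luci +Dox cells, which overlap. RQCD1, the gene of the CNOT9 subunit, had the widest difference of these 11 genes with 0.74 ± 0.45 (log2, SE), and the deadenylase genes CNOT7 and CNOT6 had 0.015 and -0.015.

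Outside the MHC class II group, 21 genes rose (0.14% of the 15017 tested) and 2 fell (0.0133%) in CNOT2 +Dox cells at an adjusted p under 0.05 (limma, with the replicate number as a block and an intensity trend). CNOT2 was 1 of the 2. At an unadjusted p under 0.05 there were 1118 genes higher (7.44%) and 859 lower (5.72%). All 23 called genes had the same sign in both replicate pairs, and 19 were more than 2-fold different in each pair. These calls depend on the model. All 23 were lost without the replicate block, where adjusted p-values began at 0.72, and without the intensity trend, where they began at 0.214, while the direction of all 23 remained in each case. Leaving out 1 of the 4 arrays kept between 1 and 3 of the 23 calls.

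**Figure D1:**
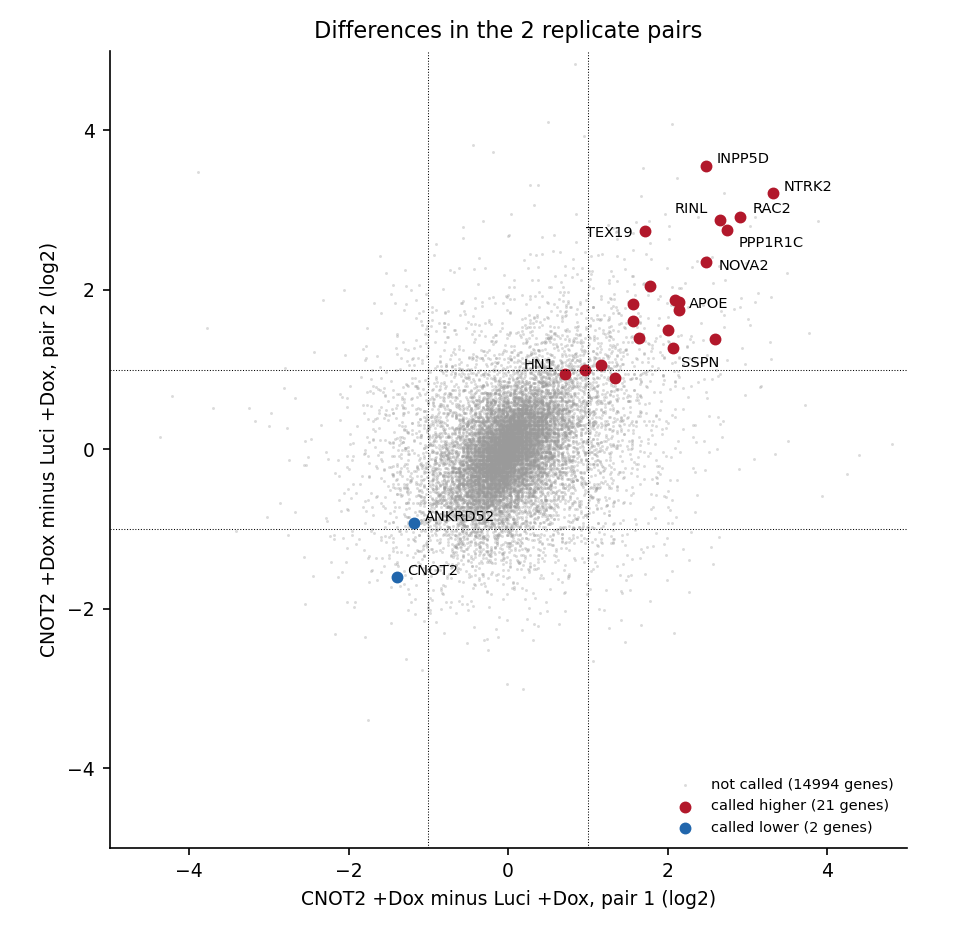
Log2 difference between CNOT2 +Dox and Luci +Dox cells in replicate pair 1 (x axis) and pair 2 (y axis), 1 point per gene, with called genes in red (21 higher) and blue (2 lower) and dotted lines at 2-fold. The called genes lie near the diagonal, while the cloud of uncalled genes includes many that are far from 0 in 1 pair only.

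Among the called genes with the largest differences were INPP5D and RAC2, which act in blood-cell signaling. INPP5D, which encodes the inositol phosphatase SHIP1 that restrains signaling in blood cells, was at 9.39 and 9.68 in CNOT2 +Dox cells, against 6.91 and 6.12 in Luci +Dox cells. It rose by 3.02 ± 0.33 (log2, SE), which is 8.11-fold, with an adjusted p of 0.017 in limma. RAC2, a small GTPase of blood cells, was at 8.47 and 8.28 in CNOT2 +Dox cells, against 5.56 and 5.37 in Luci +Dox cells, and rose 7.52-fold (adjusted p 0.034 in limma). Neither gene overlapped between the groups, as was the case for 20 of the 21 genes that rose, and both CNOT2 +Dox values lay above both Luci +Dox values in 17% of all tested genes (below them in 15.8%). The difference of RAC2 was 2.91 in each pair on its brightest spot, but -0.265 and 0.205 on average on its 2 other spots, which have mean levels of 4.82 and 4.37.

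Of the 16 tested genes in a list of 28 blood-cell signaling genes, INPP5D and RAC2 were called, 5 (31.2%) were more than 2-fold higher in both pairs and 0 were lower. The background for this threshold was 2.13% of all tested genes. The median difference of the list was 0.815, compared with -0.005 over all genes. Between CNOT2 -Dox and Luci -Dox cells it was 0.2575. The list was chosen with earlier results of these data known, so that its share and median are a description only. The tyrosine kinase gene FES had differences of 2.71 and 3.22 (adjusted p 0.0506 in limma), HCLS1, a substrate of kinases in blood cells, had 2.38 and 2.91 (0.068), and the exchange factor gene VAV1 had 1.38 and 1.48 (0.065). In the groups other than CNOT2 +Dox, FES had mean levels between 2.515 and 3.395, near the filter level of 2.96. The filter used the mean of all 8 arrays, so that FES passed it with the help of its CNOT2 +Dox levels of 4.83 and 6.13. Such a filter favours dim genes that are high in CNOT2 +Dox cells, and with them the share of 31.2% and the median. Several defining markers of blood cells were dim. PTPRC (CD45) was at 3.78 and 2.72 in CNOT2 +Dox cells, against 2.73 and 3.07 in Luci +Dox cells, and CD3E, CD2 and MS4A1 lay below the filter too. Of 10 measured markers of leukocytes, T cells, B cells and macrophages, 6 passed the filter and 0 were called. The brightest of them, the B cell gene CD79A, had 7.14 and 7.09 in CNOT2 +Dox cells, against 7.94 and 7.20 in Luci +Dox cells. The macrophage gene CD14 had 4.87 and 4.26, against 2.78 and 3.85 in Luci +Dox cells. The leukocyte gene LCP1 had 4.24 and 3.98, against 3.69 and 3.81 in Luci +Dox cells. Thus CD14 and LCP1 were higher and CD79A was lower in both pairs, while CD3D, CD68 and CSF1R changed direction between the pairs.

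RINL, a relative of the exchange factors that activate RAB5 GTPases, was at 7.88 and 8.06 in CNOT2 +Dox cells, against 5.22 and 5.18 in Luci +Dox cells, and it rose by 2.77 ± 0.34 (log2, SE). TMEM173, which encodes the DNA sensing adaptor STING, was at 7.52 and 8.10 in CNOT2 +Dox cells, against 5.74 and 6.05 in Luci +Dox cells. It rose by 1.915 ± 0.31 (log2, SE) with an adjusted p of 0.0496 in limma. No value of either gene in CNOT2 +Dox cells fell within the range of Luci +Dox cells.

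Among genes of the nervous system, NTRK2, which encodes the receptor TrkB for brain-derived neurotrophic factor, had the largest difference of all called genes. It was at 6.27 and 5.46 in CNOT2 +Dox cells, against 2.95 and 2.24 in Luci +Dox cells, where it lies at the dim end of the array. Its rise of 3.27 ± 0.48 (log2, SE) rests on the brightest of 3 spots, and the other 2 had mean differences of 0.765 and 0.245 at levels of 2.63 and 3.03. NOVA2, a regulator of splicing in neurons, was at 7.29 and 7.41 in CNOT2 +Dox cells, against 4.81 and 5.06 in Luci +Dox cells. PPP1R1C, an inhibitor of protein phosphatase 1, was at 5.34 and 6.31 in CNOT2 +Dox cells, against 2.60 and 3.56 in Luci +Dox cells. Both rose, by 2.415 and 2.745 (log2), with adjusted p-values of 0.0496 in limma. The filament gene INA, a HEK-293T marker, was at 8.83 and 9.11 in CNOT2 +Dox cells, against 6.26 and 7.02 in Luci +Dox cells, and was not called (adjusted p 0.072 in limma).

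APOE had the smallest adjusted p of all genes, 0.0062 in limma. This gene encodes apolipoprotein E, a carrier of lipids, and was at 11.83 and 12.48 in CNOT2 +Dox cells, against 9.69 and 10.73 in Luci +Dox cells, a rise of 1.945 ± 0.18 (log2, SE). LGALS1, which encodes the secreted lectin galectin-1, was at 11.53 and 10.78 in CNOT2 +Dox cells, against 9.96 and 8.96 in Luci +Dox cells, and rose by 1.695 ± 0.21 (log2, SE). Its relative LGALS3 had a difference of 1.11 and was not called (adjusted p 0.069 in limma). Other called genes encode enzymes of glycosylation and proteins of membranes. GALNT14, which starts O-glycan chains, rose by 1.98 (log2) and GLT8D2, another glycosyltransferase gene, by 2.00. SSPN, a membrane protein of the dystrophin complex of muscle, rose by 1.67 and the surface glycoprotein gene CD24 by 1.59. PPAPDC3 (now PLPP7), a membrane protein of the phosphatidic acid phosphatase family, rose by 1.755 on its brightest spot and had 1.895 on a second. SYTL1, an effector of RAB27 GTPases in vesicle transport, rose by 1.52, and its levels of 9.81 and 11.76 in CNOT2 +Dox cells overlapped with 8.17 and 10.36 in Luci +Dox cells although each pair differed.

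The remaining called genes serve the genome and the cell cycle or have a less settled role. TP53I3, a target of p53, was at 10.42 and 10.28 in CNOT2 +Dox cells, against 7.83 and 8.90 in Luci +Dox cells. It rose by 1.985 (log2), and its second spot had a mean difference of 2.135. It was the 1 called gene of 23 tested p53 targets, while 0.14% of all tested genes were called higher. The median difference of these targets was 0.09. TEX19, a gene of the germ line, was at 8.42 and 10.21 in CNOT2 +Dox cells, against 6.70 and 7.47 in Luci +Dox cells, and rose by 2.23 (log2). The mitotic spindle gene DLGAP5 rose by 1.12 (log2) and the histone gene HIST1H2BK (H2BC12) by 1.11. A second HIST1H2BK spot, with a mean level of 9.43, differed by 0.48 and 0.44 in the pairs. IFI27L2, a relative of interferon-induced IFI27, rose by 0.985. HN1 (JPT1) rose by 0.83 ± 0.11 (log2, SE) at a level above 13, and its 11 spots had mean differences between 0.61 and 0.835. CD24, SYTL1, DLGAP5, HIST1H2BK, IFI27L2 and HN1 are outside the 15 largest differences and are named to complete the account of the called genes.

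The gene that fell besides CNOT2 was ANKRD52, which encodes a regulatory subunit of protein phosphatase 6. It was at 10.04 and 10.02 in CNOT2 +Dox cells, against 11.22 and 10.95 in Luci +Dox cells, and fell by 1.055 on the log2 scale with an adjusted p of 0.0491 in limma. With 12 genes at an adjusted p of 0.0506 the threshold has no gap below it. Just outside it were, with mean differences, MANSC4 (3.375), FES (2.965), DQX1 (2.92), SFN (2.855), RIPPLY2 (2.665) and ISG20 (2.035) on the higher side and KLHDC9 (-2.245) on the lower.

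**Figure D2:**
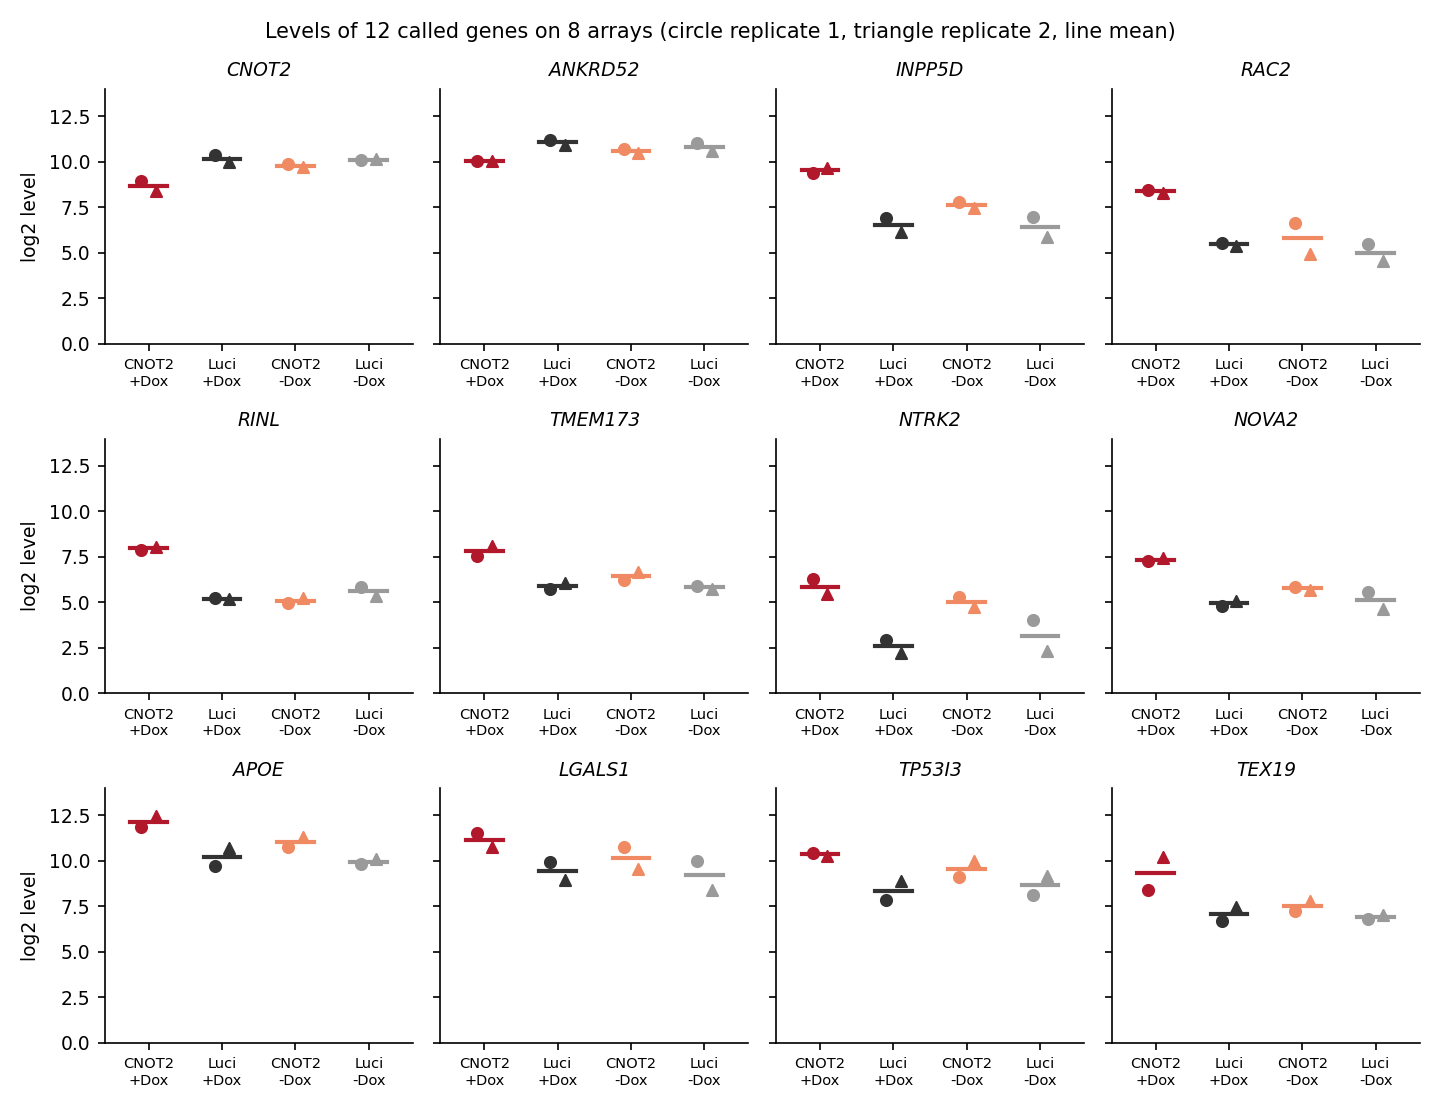
Log2 levels of 12 called genes in CNOT2 +Dox, Luci +Dox, CNOT2 -Dox and Luci -Dox cells, with circles for replicate 1, triangles for replicate 2 and lines at the group means. CNOT2 and ANKRD52 are lowest and the 10 other genes highest in CNOT2 +Dox cells, and several of the 10, such as NTRK2 and APOE, are also higher in CNOT2 -Dox than in Luci -Dox cells.

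RefSeq windows of 300 bases spanning the annotated start, most of them before it, were at hand for 18 of the 23 called genes, with the first listed window taken where a gene has several, and were searched on both strands for 4 motifs. Windows of GLT8D2, LGALS1, RAC2, TEX19 and TMEM173 were not analysed here. CCAAT, the core of the box bound by the factor NF-Y, was in 10 of 18 windows (55.6%), compared with 35.7% of 27305 windows of all genes. The windows of all genes include genes that were not tested here, and the 10 include CNOT2, the target of the shRNA. TATAAA was in 2 (11.1%, all genes 12%), and a pair of GAAA runs set 2 bases apart, as in interferon response elements, and TTCNNNGAA, the core of STAT sites, were in 1 each (5.56%, all genes 3.65% and 7.88%). A match is a description of letters and not a site in use. The 150 bases before the start follow for APOE and PPAPDC3, where the match on the other strand begins at -27 and -41 from the start, for DLGAP5, where CCAAT begins at -87 and -22, for HIST1H2BK, which holds both CCAAT and TATAAA, and for INPP5D, the gene with the second largest rise, which has none of the 4 motifs. Capitals mark TATAAA and the box named above, which reads ATTGG where it lies on the other strand. All are 5′ to 3′ on the strand of the gene, GRCh38.p14.
APOE, chr19:44905646-44905795, plus strand: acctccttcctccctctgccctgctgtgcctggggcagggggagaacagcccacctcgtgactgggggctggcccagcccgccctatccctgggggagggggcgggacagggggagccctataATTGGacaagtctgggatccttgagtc
HIST1H2BK, chr6:27146859-27147008, minus strand: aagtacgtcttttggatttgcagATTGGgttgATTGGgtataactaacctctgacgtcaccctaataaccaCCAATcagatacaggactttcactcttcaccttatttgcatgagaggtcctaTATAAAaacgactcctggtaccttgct
PPAPDC3, chr9:131289573-131289722, plus strand: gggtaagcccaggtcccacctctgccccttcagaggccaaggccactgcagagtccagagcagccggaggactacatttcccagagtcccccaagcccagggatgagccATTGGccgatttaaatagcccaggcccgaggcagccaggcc
DLGAP5, chr14:55191586-55191735, minus strand: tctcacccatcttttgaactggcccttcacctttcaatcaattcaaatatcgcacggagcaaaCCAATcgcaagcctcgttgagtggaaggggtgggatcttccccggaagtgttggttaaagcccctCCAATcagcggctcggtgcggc
INPP5D, chr2:233060192-233060341, plus strand: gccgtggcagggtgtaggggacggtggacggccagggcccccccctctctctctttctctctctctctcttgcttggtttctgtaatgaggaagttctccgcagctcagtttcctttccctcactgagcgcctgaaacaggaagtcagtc
NFYA, the DNA-binding partner subunit of NF-Y, had levels of 6.21 and 5.41 in CNOT2 +Dox cells, against 7.87 and 6.77 in Luci +Dox cells. The groups did not overlap, and the difference of -1.51 was not called (adjusted p 0.069 in limma). A second NFYA spot, with a mean level of 4.57, differed by -0.27 and 1.25 in the pairs.

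Most of the genes that rose also had a positive difference between the lines when no shRNA was induced. The comparison of CNOT2 -Dox with Luci -Dox cells uses none of the 4 +Dox arrays. In it, 20 of the 21 genes that rose had a positive difference (49.6% of all tested genes did), their median difference was 0.785, and 4 (19.0%) were more than 2-fold higher in both pairs, compared with 0.706% of all tested genes. These 4 were NTRK2, GALNT14, CD24 and PPP1R1C. GALNT14 was at 8.55 and 8.41 in CNOT2 -Dox cells, against 7.0 and 6.79 in Luci -Dox cells, a difference of 1.585. RINL was the exception with 4.94 and 5.22 in CNOT2 -Dox cells, against 5.85 and 5.34 in Luci -Dox cells. In pair 1 alone, which leaves out the Luci -Dox array with contradicting labels, 20 of the 21 were positive (50.2% of all tested genes) with a median of 0.78. In this comparison 0 genes were called at an adjusted p under 0.05 in limma, while 718 (4.78%) had an unadjusted p under 0.05. CNOT2 mRNA was at 9.86 and 9.72 in CNOT2 -Dox cells, against 10.08 and 10.17 in Luci -Dox cells, a difference of -0.335. Expression of the shRNA without Dox was not tested.

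Addition of Dox to the CNOT2 line came with a positive mean difference for all 21 genes and with more than 2-fold higher levels in both pairs for 8 of them (38.1%, all tested genes 1.25%). This comparison shares the CNOT2 +Dox arrays with the one that chose the genes, which favours such values. The 8 genes were INPP5D, RAC2, RINL, NOVA2, TEX19, APOE, TMEM173 and PPAPDC3. RINL was higher with Dox than without by 2.94 and 2.84, RAC2 by 1.83 and 3.35, INPP5D by 1.59 and 2.22 and NOVA2 by 1.46 and 1.72 (log2, pairs 1 and 2). GALNT14 had 0.31 and 0.95 and PPP1R1C 1.06 and 0.28. No gene was called in the comparison of CNOT2 +Dox with CNOT2 -Dox cells either, where 1699 (11.3%) had an unadjusted p under 0.05. For the Dox effect in the CNOT2 line minus that in the Luci line, which contains all 4 +Dox arrays that chose the genes, 0 genes were called in limma, 578 of all tested genes (3.85%) had an unadjusted p under 0.05, and the smallest adjusted p was 0.584, that of RINL. Both CNOT2 +Dox values exceeded all 6 values of the other 3 groups in 17 of the 21 genes and in 6.27% of all tested genes, but the 21 genes were chosen for high values on these arrays, so that their count is a description only.

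**Figure D3:**
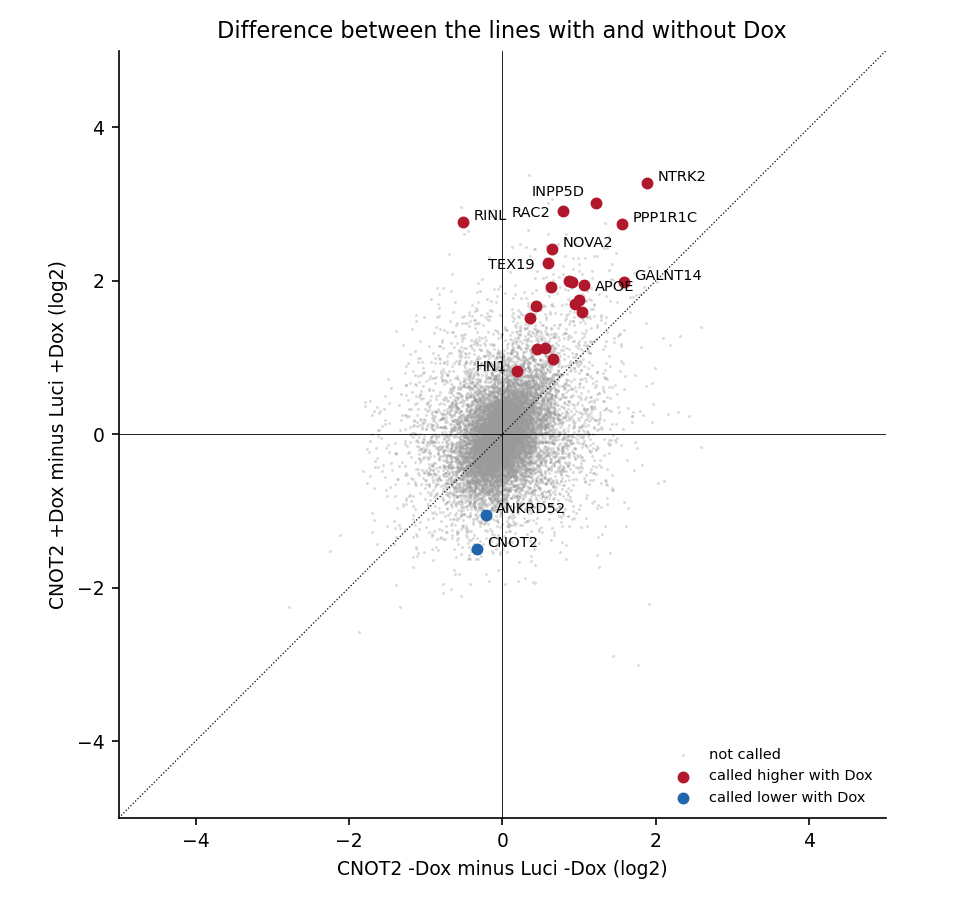
Log2 difference between the CNOT2 and Luci lines without Dox (x axis) and with Dox (y axis), means of both pairs, 1 point per gene, with the dotted line at equal differences. Of the 21 genes called higher with Dox (red), 20 lie right of 0 and all lie above the dotted line, and RINL lies at -0.515 without Dox.

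In the other knock-downs, compared with the same line without Dox on 1 array each, levels in CNOT3 +Dox cells were more than 2-fold higher for 10 of the 21 genes (47.6%, all tested genes 5.43%) and those in CNOT1 +Dox cells for 3 (14.3%, all tested genes 4.83%). RINL had a difference of 2.45 in the CNOT3 line and -0.43 in the CNOT1 line, NTRK2 had 2.01 and -0.58, and APOE had 1.56 and -0.23. TMEM173 had 1.17 in the CNOT3 and 1.5 in the CNOT1 line, and PPAPDC3 had 1.04 and 1.61. These differences rest on single arrays and were not tested.

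Without a model, 320 genes (2.13%) were more than 2-fold higher in both pairs and 121 (0.806%) were more than 2-fold lower, while 130 (0.866%) passed this threshold in opposite directions. Pair 1 alone gave 999 genes higher (6.65%) and 641 lower (4.27%), and pair 2 gave 943 (6.28%) and 787 (5.24%). The differences of the 2 pairs correlated across genes with r = 0.32, and with r = 0.59 among the 6326 genes with a mean level above 8. Of the 320 genes, 292 were 2- to 4-fold higher in the smaller of both pairs, 27 were 4- to 8-fold and 1 more than 8-fold higher. Of the 121 genes these numbers were 120, 1 and 0. The 320 genes had a median mean level of 4.68, compared with 7.32 for all tested genes, so that many are dim. Relative to CNOT2 -Dox cells, both pairs showed levels more than 2-fold higher for 75 of the 320 (23.4%, all tested genes 1.25%) and more than 2-fold lower for 13 of the 121 (10.7%, all tested genes 0.586%). In the Luci line the 320 genes had a median Dox difference of -0.26 and the 121 genes one of 0.51, and for 14 of the 121 both pairs were more than 2-fold higher with Dox in Luci cells (all tested genes 0.573%). These counts and medians share the CNOT2 +Dox or the Luci +Dox arrays with the comparison that chose the genes and are no independent support.

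RAB3C, a GTPase gene of synaptic vesicles, was among the uncalled genes with the largest differences in both pairs. It was at 5.52 and 4.88 in CNOT2 +Dox cells, against 2.42 and 1.96 in Luci +Dox cells. In the groups other than CNOT2 +Dox, RAB3C had mean levels between 2.19 and 3.215, near the filter level. A second RAB3C spot, with a mean level of 2.84, differed by -0.07 and 0.67 in the pairs and did not repeat this rise. On the lower side, LINGO2, a neuronal membrane protein gene, was at 2.62 and 2.01 in CNOT2 +Dox cells, against 4.38 and 5.41 in Luci +Dox cells, and differed by -1.875 without Dox. The collagen gene COL7A1 was at 3.62 and 3.45, against 4.90 and 6.08 in Luci +Dox cells. KLHDC9 was at 4.72 and 5.74 in CNOT2 +Dox cells, against 7.27 and 7.68 in Luci +Dox cells, but it was also low in CNOT2 -Dox cells, with 4.69 and 4.38, against 7.29 and 7.33 in Luci -Dox cells. Opposite differences in the pairs were found for SNORD12B with -3.89 and 3.48 and for RRAGB, a GTPase gene of nutrient sensing, with 2.08 and -2.31. The endothelin receptor gene EDNRB and the keratin gene KRT6B had 3.94 and 4.40 in pair 1, and -0.58 and -0.07 in pair 2.

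Interferon-stimulated genes were more often higher than lower, although 0 of them were called. Of 42 listed genes 27 were tested, 5 (18.5%) were more than 2-fold higher in both pairs (2.13% of all tested genes) and 0 were lower, and the median difference was 0.455. By any amount, 16 of the 27 were higher and 2 lower in both pairs, compared with 31.5% and 31.9% of all tested genes. IFI35 was at 6.56 and 7.02 in CNOT2 +Dox cells, against 2.79 and 5.56 in Luci +Dox cells. The ribonuclease gene ISG20 was at 8.02 and 9.93, against 6.77 and 7.11 in Luci +Dox cells, and BST2 (tetherin), which holds back budding viruses, at 8.62 and 9.12, against 6.47 and 7.96 in Luci +Dox cells. PARP10 and IFIT2 are the others, at 2.35 and 1.33 above Luci +Dox cells on average. Between CNOT2 -Dox and Luci -Dox cells the median of the list was 0.11. In a separate list of 19 tested genes of interferon signaling and nucleic acid sensing, TMEM173 was the 1 called gene. Of all tested genes 0.14% were called higher. The median of this list was 0.04.

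Genes of MHC class I presentation had a median difference of 0.225 over 17 tested genes, of which 2 (11.8%, all tested genes 2.13%) were more than 2-fold higher in both pairs. These were PSMB9, a subunit of the immunoproteasome, with 6.32 and 6.86 in CNOT2 +Dox cells against 4.01 and 4.57 in Luci +Dox cells, and the trimming peptidase gene ERAP2 with 4.97 and 6.42 against 3.59 and 4.71 in Luci +Dox cells. Targets of NF-kB had a median of 0.39 over 15 genes, with 3 (20%) more than 2-fold higher in both pairs, namely TNFAIP2, CXCL1 and IL6. CXCL1 was at 5.04 and 4.51 in CNOT2 +Dox cells, against 2.89 and 3.37 in Luci +Dox cells. Mean levels in the other groups were between 2.375 and 3.375 for CXCL1 and between 2.61 and 2.975 for IL6, near the filter level. A second CXCL1 spot, with a mean level of 3.31, differed by -0.16 and 0.34 in the pairs. A second IL6 spot, with a mean level of 2.37, differed by -0.48 and 0.78. The share of 20% thus rests in part on dim genes whose second spots did not repeat the 2-fold rise. mRNAs of immediate early and AU-rich genes, which are degraded fast, had a median of 0.36 over 30 tested genes. LIF and DUSP6 were the 2 (6.67%, all tested genes 2.13%) more than 2-fold higher in both pairs. A second LIF spot, with a mean level of 2.88, differed by 0.93 and -0.52. DUSP5 had 5.77 and 5.66 in CNOT2 +Dox cells, against 5.04 and 4.17 in Luci +Dox cells (adjusted p 0.299 in limma). None of the members of these 3 lists was called. Between CNOT2 -Dox and Luci -Dox cells the medians of the MHC class I, NF-kB and immediate early lists were 0.155, 0.17 and 0.2525. Between CNOT2 +Dox and CNOT2 -Dox cells they were 0.125, 0.34 and 0.045.

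**Figure D4:**
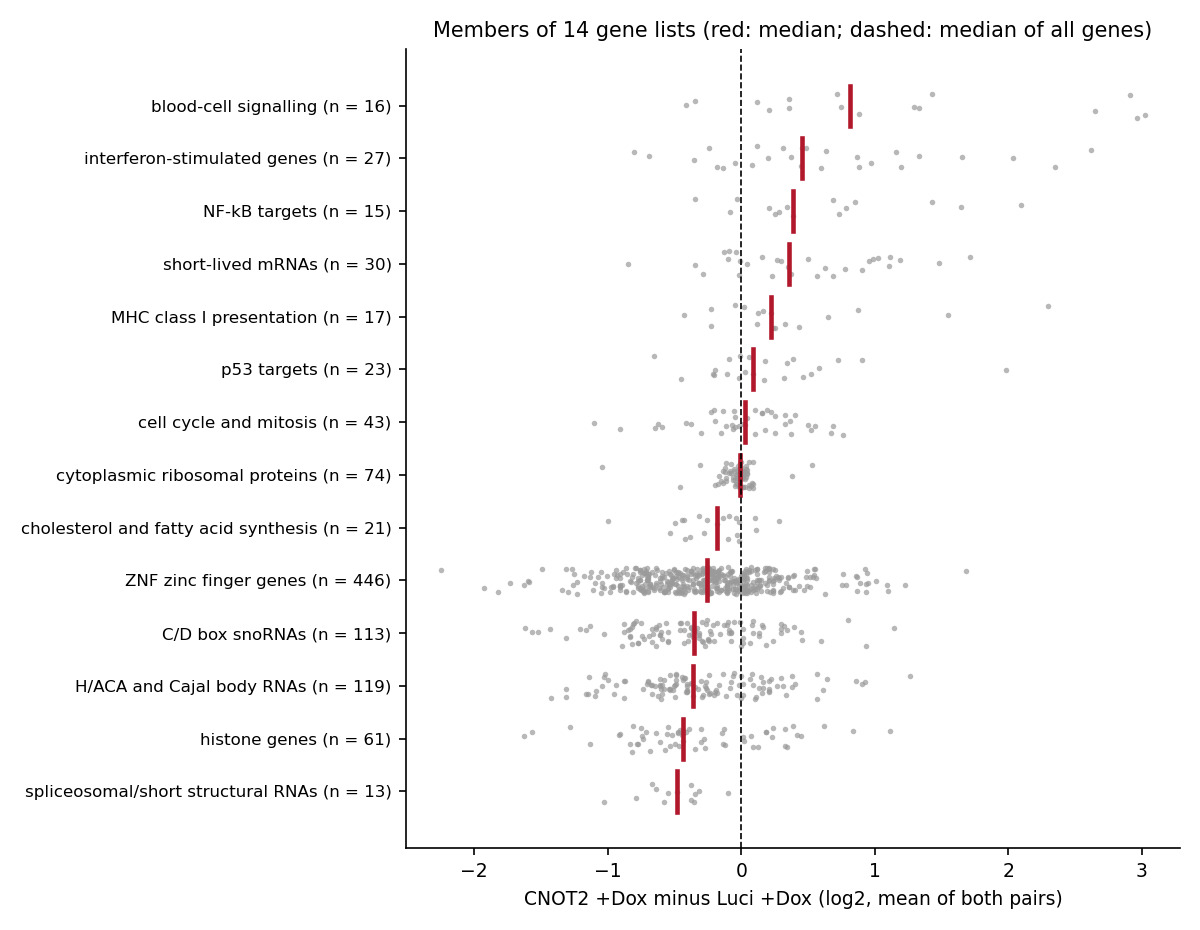
Log2 difference between CNOT2 +Dox and Luci +Dox cells (x axis, mean of both pairs) for the tested members of 14 gene lists, 1 grey point per gene, with the list median in red and the median of all tested genes as a dashed line. Medians run between 0.815 for blood-cell signaling and -0.48 for spliceosomal and other short structural RNAs.

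Zinc finger genes and short non-coding RNAs were more often lower. Of 446 tested genes with a ZNF symbol, which mostly encode DNA-binding repressors, 230 were lower and 54 higher in both pairs by any amount, compared with 31.9% (lower) and 31.5% (higher) of all tested genes. Their median was -0.2575, and 15 (3.36%) were more than 2-fold lower in both pairs, with 0.806% of all tested genes as background. ZNF44 was at 2.72 and 2.84 in CNOT2 +Dox cells, against 4.89 and 5.16 in Luci +Dox cells, and ZNF136 at 4.67 and 4.61, against 6.14 and 6.34 in Luci +Dox cells. None of the 446 was called. Both genes were also more than 2-fold lower in both pairs without Dox. CNOT2 -Dox minus Luci -Dox was -1.6 and -1.06 for ZNF44, and -1.01 and -1.32 for ZNF136. The median of the list without Dox was -0.115.

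C/D box snoRNAs, which guide methylation of ribosomal RNA, had a median of -0.355 over 113 tested genes, with 5 (4.42%) more than 2-fold lower in both pairs and 0 higher. SNORD33 was at 4.18 and 4.22 in CNOT2 +Dox cells, against 5.77 and 5.76 in Luci +Dox cells. H/ACA and Cajal body RNAs, most of which guide pseudouridylation, had a median of -0.36 over 119 tested genes, 3 (2.52%) of them more than 2-fold lower in both pairs. Of 13 tested spliceosomal and other short structural RNAs 10 were lower in both pairs and 0 higher, with a median of -0.48. Without Dox the medians of these 3 lists between the lines were -0.005, 0.17 and -0.135. Histone genes had a median of -0.435 over 61 tested genes and of -0.35 without Dox. HIST1H4A and HIST4H4 were more than 2-fold lower in both pairs, with mean differences of -1.63 and -1.565. HIST1H2BK is the 1 histone gene that rose, while 0.14% of all tested genes did. Most of these RNAs lack a poly(A) tail, and how their signal depends on RNA labeling was not tested.

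Some genes outside MHC class II had been chosen for RT-qPCR by the study from arrays of this series. Of these 9 genes, RAC2 and TEX19 rose here, while 0.14% of all tested genes did. SNORA27 was at 7.05 and 4.57 in CNOT2 +Dox cells, against 7.87 and 6.38 in Luci +Dox cells, and had a difference of -1.315 (adjusted p 0.264 in limma). RASSF1, a tumor suppressor gene of RAS signaling, had -0.75 and -1.08, and HIST1H4E had -0.81 and -1.0. RRAGB differed in opposite directions as given above.

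Other groups had medians closer to that of all genes. The 74 tested genes of cytoplasmic ribosomal proteins had a median of -0.01, the 80 of oxidative phosphorylation -0.0025, the 33 proteasome subunits 0.11 and the 43 genes of the cell cycle 0.03. Of these 4 lists 0 genes were called. Of the proteasome subunits 20 were higher and 4 lower in both pairs by any amount. Genes of mRNA decay other than CCR4-NOT had medians of -0.0825 for 8 other deadenylases, -0.025 for 19 decapping and 5′ decay genes, -0.04 for 17 exosome genes and 0.06 for 13 genes of microRNA silencing. The decapping enzyme gene DCP2 was at 8.09 and 7.08 in CNOT2 +Dox cells, against 8.98 and 8.09 in Luci +Dox cells (adjusted p 0.107 in limma), with 8.09 on 1 array of each group. Genes of cholesterol and fatty acid synthesis had a median of -0.18 over 21 tested genes, 14 of them lower in both pairs. Their regulator SREBF2 was at 8.10 and 8.26 in CNOT2 +Dox cells, against 9.18 and 9.17 in Luci +Dox cells (adjusted p 0.086 in limma). Among stress and growth factor genes, HMOX1 (heme oxygenase) was at 11.93 and 9.79, against 10.17 and 7.81 in Luci +Dox cells. GDF15 was at 11.56 and 12.80, against 9.87 and 9.27 in Luci +Dox cells. The receptor gene ACVRL1 was at 6.34 and 7.84, against 3.62 and 5.71 in Luci +Dox cells, and none of the 3 was called. Between CNOT2 +Dox and CNOT2 -Dox cells HMOX1 differed by 1.45 and -0.97, GDF15 by 1.55 and -0.47 and ACVRL1 by 1.32 and 2.43. With Dox GDF15 changed by 0.64 and -3.6 in the Luci line. Without Dox the lines differed by 0.58 and 1.64 for HMOX1, 0.78 and 0.4 for GDF15 and 1.6 and 1.14 for ACVRL1.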

How the data were processed

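Human 8x60K oligonucleotide arrays (1-colour, Cy3) were analysed. According to the methods, the authors logged the mean signal of each spot, used NormExp with negative controls for the background and applied quantile normalization in limma. The deposited values have the range of log2 intensities and were read as such. A gene symbol was given for 37051 spots (20088 genes), and each gene was represented by its brightest spot. The test covered genes whose mean on the 8 CNOT2 and Luci arrays reached the 25th percentile (2.96), 15031 in all including 14 of MHC class II. In limma 3.58.1 (R 4.3.3), 4 group means and the replicate number as a block were fitted to these 8 arrays, with an intensity trend and Benjamini-Hochberg adjustment at 0.05. The study analysed a new and a previous experiment together, without saying which array belongs to which. Deviations of same-numbered arrays from their group means correlated with each other (r between 0.36 and 0.61 in the 6 pairs of groups), so that the numbers pair the samples. The fit was tested on simulated data. Lists are described by counts and medians, without a test. Genes to be named were mostly drawn from the CCR4-NOT subunits, the 15 largest differences in each direction and the largest in each list. Further sources were up to 6 genes with opposite signs in the pairs and the RT-qPCR genes of the study. Not all genes of these sources are named. Genes, lists and model were chosen with earlier results of these data known. Alternatives were fits without the block, without the trend, with other filters, rows, normalization and arrays.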

Additional observations from a re-analysis of the deposited data

How the results depend on the processing

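The genes that rose and fell in CNOT2 +Dox cells numbered 21 and 2, and CNOT2 mRNA had a difference of -1.5 with an adjusted p of 0.029 in limma. Without the replicate block these were 0, 0 and -1.5 (adjusted p 0.934), so that the pairing decides the calls, and 22 of the 23 genes kept an unadjusted p under 0.05. Without the intensity trend they were 0, 0 and -1.5 (0.22), and without both, a choice added after the data were seen, 0, 0 and -1.5 (0.638). A filter at the median of genes gave 10 and 1, the mean of all spots of a gene 3 and 0 with CNOT2 at -0.61 (0.393), and cyclic loess 32 and 5. With only the 4 arrays compared 204 and 83 genes were called, and without replicate 2 of Luci -Dox, whose labels disagree, 15 and 1. Leaving out 1 of the 4 arrays gave 1 to 11 genes higher and 0 to 2 lower, and CNOT2 between -1.28 and -1.72 (adjusted p 0.083 to 0.286), where the lone array of a group is assumed to vary like the others. INPP5D without replicate 1, and TP53I3 without replicate 2 of CNOT2 +Dox, and APOE without replicate 2 of Luci +Dox, were the 1 gene left. The genes more than 2-fold higher and lower in both pairs numbered 107 and 30 with the filter at the median, 892 and 586 at 1.5-fold and 72 and 11 at 3-fold, instead of 320 and 121. Of 1073 values of 80 named genes 5 changed sign, for EDNRB (-0.43 without replicate 1 of CNOT2 +Dox, up to 3.79 when another array was left out), RRAGB (1.46 without replicate 2 of CNOT2 +Dox, 1.23 without replicate 2 of Luci +Dox, down to -1.69) and SNORD12B (2.135 without replicate 1 of CNOT2 +Dox, 2.37 without replicate 1 of Luci +Dox, down to -2.78). The cause of these shifts was not tested. The number of arrays limits the precision.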

Other observations

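In the MHC region outside the class II genes, zones chosen after the values were seen held few genes past the threshold that 2.13% of all tested genes passed. Between HLA-F and MICB, 2 of 43 tested genes (4.65%) were more than 2-fold higher in both pairs, the non-coding RNA gene HCP5 with 4.75 and 6.09 in CNOT2 +Dox cells against 2.38 and 3.73 in Luci +Dox cells and 1.09 and 1.87 higher in CNOT2 -Dox than in Luci -Dox cells, and PSORS1C1 with 5.98 and 6.24 against 2.68 and 4.33 in Luci +Dox cells. In the zone after MICB it was 1 of 54 genes (1.85%), AIF1. Between TSBP1 and KIFC1, around the class II genes, 2 of 21 (9.52%) passed, namely PSMB9 and the galactosyltransferase gene B3GALT4, which was at 7.61 and 6.93 in CNOT2 +Dox cells against 5.36 and 5.65 in Luci +Dox cells. None of these genes was called in limma, and 0 genes of the 3 zones were more than 2-fold lower in both pairs.

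The filament gene DES was at 7.21 and 7.14 in CNOT2 +Dox cells, against 5.51 and 5.62 in Luci +Dox cells, and at 5.51 and 5.98 in CNOT2 -Dox cells, against 6.06 and 6.13 in Luci -Dox cells (adjusted p 0.081 in limma for the +Dox comparison). The keratin-related gene KRT222 was at 8.77 and 8.53 in CNOT2 +Dox cells, against 6.89 and 6.64 in Luci +Dox cells (0.060), and the pro-apoptotic BCL2 family gene BIK at 7.34 and 7.35, against 6.05 and 5.58 in Luci +Dox cells (0.157). Both genes were also higher in CNOT2 -Dox than in Luci -Dox cells, KRT222 by 0.77 and 0.94 and BIK by 0.71 and 1.51.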
